A study of Mus musculus with 7 samples.

Results

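The transcripts of 10 genes of the heart's matrix-degrading system were compared between mice with myocardial infarction (MI) and sham-operated mice, 6 matrix metalloproteinases (MMPs: Mmp2, Mmp3, Mmp9, Mmp12, Mmp14 and Mmp19) and the 4 tissue inhibitors of metalloproteinases (TIMPs: Timp1, Timp2, Timp3 and Timp4). They were chosen as a family of genes, with earlier results of these data known, and all 10 were found among the 56980 genes of the deposited table. RNA was sequenced from the myocardium of 7 male wild-type mice of the inbred strain C57BL/6J, which had arrived aged 8 weeks, with 1 library per mouse. In 3 mice (MI) the left coronary artery had been tied off, and the tissue was taken 4 days later. The other 4 (sham) had the operation without the ligature. The study calls the tissue of the MI mice ischemic, and how it was cut from the heart (infarct core, border or whole ventricle) is not given in the sources used here.

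Levels are given as FPKM, a fragment count scaled by gene length and by library size, so that levels of different genes can be set side by side. The libraries held 19977713 to 23610869 fragments. The labelled tissue was matched by its defining transcripts: the summed level of 6 cardiomyocyte markers was 11248 to 12313 FPKM in sham mice and 7911 to 11386 in MI mice. MI replicate 2 stood apart from the other MI mice. Across the 11431 genes tested, its log2 levels correlated with those of the sham mice at a Pearson's r of 0.984 to 0.987, close to the 0.989 to 0.992 among sham mice themselves, whereas r with MI replicates 1 and 3 was 0.897 and 0.920. Its mitochondrial transcripts made up 58.5% of all FPKM, against 55.7% to 57.1% in sham mice and 36.1% and 38.2% in the other MI mice. The labels place this mouse in the MI group, and the tests of the members and of the gene lists are therefore given with and without it. Since it was set apart by its levels in these same data, p-values without it can be too small and are given as description.

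MMPs are zinc-dependent enzymes that cut collagens, elastin, proteoglycans and other proteins of the extracellular matrix. Most are secreted as inactive proenzymes and some, such as Mmp14, sit in the cell membrane, and TIMPs bind to the active site of the mature enzymes and block it. In the infarcted heart this system is known for clearing the dead muscle's collagen scaffold and for remodelling the scar that replaces it, with neutrophils, macrophages and fibroblasts as known sources of the enzymes.

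In the sham hearts 2 of the inhibitors were the most abundant of the 10 transcripts. Timp3 came first at 35.9 ± 5.55 FPKM (SD, n = 4), ahead of Timp2 at 25.7 ± 0.635, Mmp2 at 14.8 ± 1.69, Timp4 at 7.09 ± 1.71 and Mmp14 at 1.68 ± 0.217. The ranges of these neighbours over the 4 mice were apart at each step of this order. Timp1 (0.985 ± 0.208) and Mmp3 (0.911 ± 0.120) overlapped with each other, as did Mmp19 (0.550 ± 0.125), Mmp9 (0.326 ± 0.0789) and Mmp12 (0.221 ± 0.0407) with their neighbours at the bottom. In the MI mice the order of the means was Mmp2, Timp2, Timp3, Timp1, Mmp14, Mmp19, Timp4, Mmp3, Mmp9 and Mmp12, and the ranges of all neighbours in it overlapped. The gene lengths implied by the deposited values were longer than the exon lengths of the GENCODE M21 annotation for every member but Mmp3 (1384 against 888 bases for Timp1), which bears on levels set between genes and not on the comparison of mice.

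**Figure D1:**
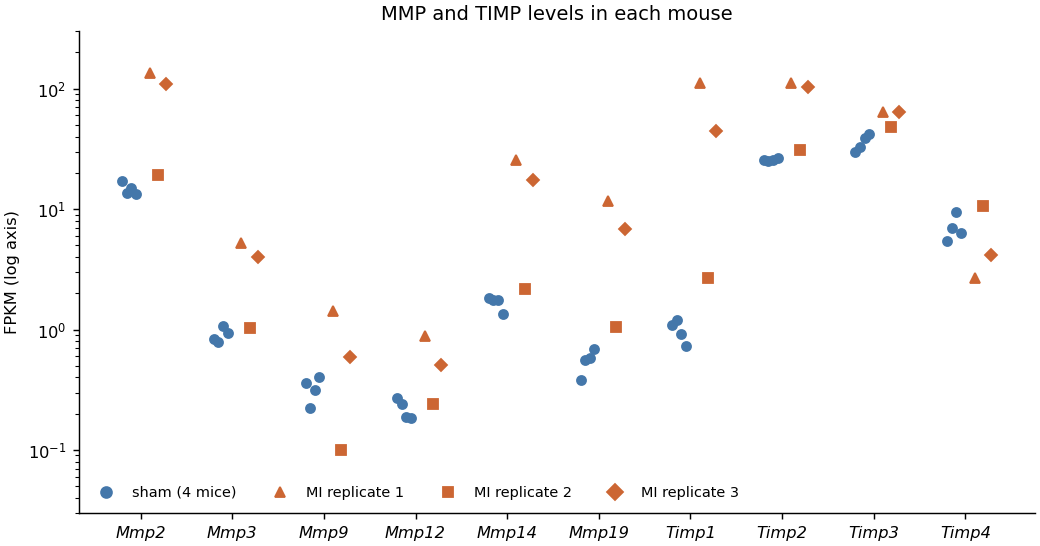
FPKM (log axis) of the 10 genes, with 1 point per mouse: blue circles for the 4 sham mice, orange symbols for MI replicates 1 (triangle), 2 (square) and 3 (diamond). MI replicates 1 and 3 lie above all sham mice for every gene but Timp4, where they lie below, and MI replicate 2 lies near the sham mice.

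The question put to each gene was whether its level differed between MI and sham hearts by more than mice of a group differed. Tested were the 11431 genes with at least 1 FPKM in at least 3 of the 7 mice, on log2(FPKM + 1), a scale that understates changes of low genes, with limma and Benjamini-Hochberg adjustment over all of them. Of the 10 members 8 were tested, and Mmp9 and Mmp12 fell below the filter. No member passed an adjusted p of 0.05, which 0.0262% of all genes did. At an unadjusted p under 0.05, 7 members were higher in MI mice and 0 were lower, where 29.5% of all genes were higher and 9.85% lower. For 6 members every MI mouse lay above every sham mouse, as held for 16.1% of the genes tested. The median log2 fold change was 1.68 over the 8 tested members and 0.21 over all genes. However, Mmp19 passed the filter through its 3 MI values alone. Mmp3 and Timp1 reached 1 FPKM in fewer than 3 sham mice, so they too passed only with their MI values. These counts thus describe the members and test nothing about them as a set. Without MI replicate 2, 7 members were higher and 1, Timp4, was lower at an adjusted p under 0.05, beside 57% and 14.7% of all genes. A fit with sample weights gave the same counts, 7 and 1, but called 66.8% of all genes higher and 20.3% lower. In bulk tissue, a larger share of cells that make a transcript and more transcript per cell cannot be told apart.

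Mmp2 (gelatinase A, ENSMUSG00000031740) degrades denatured and basement-membrane collagen and is widely made by fibroblasts. Its gene lies on chromosome 8 from 92827291 to 92853420, plus strand (this and all later positions on GRCm38, GENCODE M21). Its FPKM was 17.0, 13.6, 15.1 and 13.4 in sham replicates 1 to 4 and 136, 19.1 and 109 in MI replicates 1 to 3. All MI mice were above all sham mice, 2 of them far above and MI replicate 2 only just. With all mice it had a log2 fold change of 2.09 (standard error, SE, 0.61, adjusted p = 0.108). Without MI replicate 2 it was 2.96 (adjusted p = 5.09e-06). From the sham mean, the level was 9.20-fold in MI replicate 1, 1.29-fold in replicate 2 and 7.36-fold in replicate 3.

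Mmp14 (membrane type 1 MMP, ENSMUSG00000000957; chromosome 14 from 54431612 to 54445364, plus strand) cuts fibrillar collagen at the cell surface and, together with Timp2, activates pro-MMP2. Sham mice had 1.83, 1.78, 1.75 and 1.36 FPKM, and MI mice 25.8, 2.16 and 17.5. The groups did not overlap, with MI replicate 2 again just above the sham mice. On the log2 scale the fold change came to 2.12 (SE 0.66, adjusted p = 0.108) with all mice and to 3.06 without MI replicate 2 (adjusted p = 8.71e-06). Relative to their sham means Mmp14 thus stood higher than Mmp2 in MI replicates 1 and 3 (15.4-fold and 10.4-fold), though its level stayed below that of Mmp2 in every mouse.

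Mmp19 (ENSMUSG00000025355; chromosome 10 from 128790910 to 128800824, plus strand) is a secreted MMP with basement-membrane proteins among its substrates. FPKM values were 0.383, 0.556, 0.575 and 0.686 in sham mice against 11.7, 1.05 and 6.87 in MI mice. The lowest MI mouse was above the highest sham mouse. Over all mice the log2 fold change was 1.93 (SE 0.55, adjusted p = 0.108), against 2.69 (adjusted p = 2.82e-05) without MI replicate 2. Tmem198b, oriented the other way, has 789 exon bases in common with it and the antisense gene Gm47093 has 212. The FPKM of Tmem198b itself was 1.23 to 1.46 in sham and 1.61 to 4.03 in MI mice. Whether counting used the strand is not given in the sources used here, so reads on the shared bases cannot be assigned to one of them.

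Mmp3 and Mmp12 lie in the same cluster of MMP genes on chromosome 9. Mmp3 (stromelysin 1, ENSMUSG00000043613, from 7445822 to 7455975, plus strand) has a broad range of matrix substrates and cuts other MMP proenzymes into active form. Mmp12 (macrophage elastase, ENSMUSG00000049723, from 7344381 to 7369499, plus strand) is the elastin-cutting enzyme of macrophages. AP-1, the Fos and Jun dimer, is a known inducer of such genes, so the 250 bases before their transcription starts are shown with any AP-1 motif (TGANTCA, which reads the same on both strands), ETS motif (AGGAAG, either strand) or TATAAA (either strand) in capitals, as RefSeq gives them for GRCm38.p6. The Timp1 window is shown beside them for contrast. Of the 10 members 7 (all but Mmp2, Mmp9 and Mmp19) had a window, 8 windows in all since Mmp12 has 2 starts, and an AP-1 motif was in the windows of Mmp3 and of the later Mmp12 start only.
Mmp3, chr9:7445572-7445821, plus strand: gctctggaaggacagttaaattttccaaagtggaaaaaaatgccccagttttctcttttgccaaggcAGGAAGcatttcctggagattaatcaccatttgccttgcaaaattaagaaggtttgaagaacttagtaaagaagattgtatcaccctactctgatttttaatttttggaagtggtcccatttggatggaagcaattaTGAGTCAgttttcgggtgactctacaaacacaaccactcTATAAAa
Mmp12, later start, chr9:7347124-7347373, plus strand: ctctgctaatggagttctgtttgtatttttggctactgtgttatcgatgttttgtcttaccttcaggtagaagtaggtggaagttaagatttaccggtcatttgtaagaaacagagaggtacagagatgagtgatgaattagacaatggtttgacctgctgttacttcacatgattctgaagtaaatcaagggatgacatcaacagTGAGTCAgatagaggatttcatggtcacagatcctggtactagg
Timp1, chrX:20869916-20870165, plus strand: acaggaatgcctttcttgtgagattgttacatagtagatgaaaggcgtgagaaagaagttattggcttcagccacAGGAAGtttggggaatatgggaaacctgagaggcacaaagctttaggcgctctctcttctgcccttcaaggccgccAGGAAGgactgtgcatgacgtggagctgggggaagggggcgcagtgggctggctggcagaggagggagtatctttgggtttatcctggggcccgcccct
The AP-1 motif began 46 bases before the start in Mmp3 and 44 bases before it in Mmp12, and the letters were TGAGTCA in both. Of all 32851 promoter windows, counted with 50 bases after the start, 7.81% held an AP-1 motif, 35.4% an ETS motif and 13.6% TATAAA. The Timp1 window held 3 ETS motifs, 1 of them 41 bases after the start and so outside the printed stretch. Such matches describe the letters and not binding.

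Mmp3 was measured at 0.842, 0.794, 1.06 and 0.945 FPKM in sham mice and at 5.23, 1.03 and 4.02 in MI mice. MI replicate 2 fell within the sham range, so the groups overlapped (exact two-sided permutation p = 0.114 over the 35 splits of the mice). A log2 fold change of 1.06 (SE 0.35, limma adjusted p = 0.108) was found with all mice, and of 1.55 (adjusted p = 2.84e-05) without MI replicate 2.

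Mmp12 was low throughout, at 0.269, 0.241, 0.188 and 0.186 FPKM in sham mice and 0.876, 0.240 and 0.506 in MI mice, and its fragments numbered 37 to 60 in sham mice and 190, 54 and 119 in the respective MI mice. MI replicates 1 and 3 were above all sham mice and MI replicate 2 was among them. With no filter on low genes its log2 fold change was 0.32 (SE 0.13, limma adjusted p = 0.20), and the exact two-sided permutation p was 0.171. The log2 difference was 0.46 without MI replicate 2, not tested at this level. In 157 exon bases it coincides with the oppositely oriented Mmp1b, which was listed at 0 in all 7 mice.

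Mmp9 (gelatinase B, ENSMUSG00000017737; chromosome 2 from 164940780 to 164955850, plus strand) is stored in the granules of mature neutrophils and is also made by macrophages. Its FPKM was 0.362, 0.222, 0.313 and 0.406 in sham mice and 1.43, 0.101 and 0.591 in MI mice. MI replicate 2 was the lowest of all mice and the other MI mice were the highest, so the groups overlapped. The values rested on few fragments, 19 to 32 in sham mice, and in MI mice on 123, 9 (exact 95% Poisson interval 4.12 to 17.1, counting error only) and 55. The unfiltered log2 fold change of 0.29 (SE 0.25, limma adjusted p = 0.460) did not pass the test, and the exact two-sided permutation p was 0.457. Its log2 difference was 0.57 without MI replicate 2, likewise not tested. A difference between the groups in Mmp9 was not detectable with all 7 mice.

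Among the inhibitors Timp1 stood out. Timp1 (ENSMUSG00000001131) is the secreted inhibitor known as the inducible one of the family, and its gene lies on chromosome X from 20870166 to 20874735, plus strand, within the span of the oppositely oriented Syn1 but with 0 exon bases in common. Its FPKM was 1.10, 1.20, 0.923 and 0.723 in sham mice and 112, 2.68 and 44.6 in MI mice. Every MI mouse was above every sham mouse, MI replicate 2 included at 2.72-fold the sham mean, and the others reached 113-fold and 45.3-fold. Its log2 fold change, 3.75 (SE 1.02, adjusted p = 0.108), ranked 10 from the top among the 11431 genes by size and 613 by p. It was 5.18 (adjusted p = 1.97e-05) without MI replicate 2.

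Timp2 (ENSMUSG00000017466; chromosome 11 from 118301069 to 118355740, minus strand) both inhibits MMPs and takes part in the activation of pro-MMP2. It was the steadiest member in sham mice, at 25.8, 25.1, 25.4 and 26.6 FPKM, against 111, 31.1 and 104 in MI mice. The groups did not overlap, and the gap to MI replicate 2 was small but wider than the whole sham range. Timp2 had a log2 fold change of 1.44 (SE 0.41, adjusted p = 0.108), or 2.02 (adjusted p = 1.10e-06) without that mouse.

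Timp3 (ENSMUSG00000020044) is the inhibitor that binds to the matrix and also blocks ADAM-family sheddases. Its gene lies on chromosome 10 from 86300372 to 86349506, plus strand, within the oppositely oriented Syn3, with which 1733 exon bases are in common. It stood at 29.9, 32.5, 39.3 and 41.7 FPKM in sham mice and at 64.2, 47.9 and 63.8 in MI mice, while Syn3 stayed between 0.0134 and 0.158 in all mice. All MI mice were above all sham mice, and as a ratio of FPKM no other member differed so little between MI replicate 2 and the remaining MI mice. At 0.69 (SE 0.16, adjusted p = 0.108) its log2 fold change had the smallest unadjusted limma p of the members (rank 230 of 11431 genes), and it was 0.83 without MI replicate 2 (adjusted p = 0.00128). That standing depended on the scaling: the log2 fold change was 0.48 with quantile scaling and 0.43 with median log-ratio scaling. There the unadjusted limma p of Timp3, 0.0134 and 0.0194, was above that of Timp1.

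Timp4 (ENSMUSG00000030317; chromosome 6 from 115241892 to 115252205, minus strand, with 90 exon bases that also belong to the oppositely oriented Syn2) is the inhibitor known for its high level in heart. As for Mmp9, its MI mice lay on both sides of the sham mice, but with MI replicates 1 and 3 on the low side. FPKM values were 5.48, 7.03, 9.48 and 6.39 in sham mice and 2.70, 10.7 and 4.19 in MI mice. MI replicates 1 and 3 were below every sham mouse and MI replicate 2 was above every one. With all mice the log2 fold change of −0.39 (SE 0.38, adjusted p = 0.428) did not pass the test. It was −0.86 (adjusted p = 0.00832) without MI replicate 2, but −0.03 (adjusted p = 0.956) without MI replicate 1. Syn2 had 0.224 to 0.327 FPKM in sham and 0.236 to 0.436 in MI mice.

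For each of the 6 members whose groups did not overlap, Mmp2, Mmp14, Mmp19, Timp1, Timp2 and Timp3, the exact two-sided permutation p was 0.0571, the smallest that 3 mice against 4 allow. Whether a litter, day or operator set the mice apart is not recorded in the labels, and the p-values measure the spread between these mice.

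Summed over members, the transcripts of proteases and of inhibitors were both higher in every MI mouse than in every sham mouse. The 6 MMPs together came to 18.5 ± 1.76 FPKM (SD, n = 4) in sham mice and to 181, 23.7 and 138 in MI replicates 1 to 3. The 4 TIMPs came to 69.7 ± 6.62 and to 289, 92.4 and 216. The ratio of these sums was 0.268 ± 0.0458 in sham mice (0.226 to 0.333) and 0.625, 0.256 and 0.639 in MI mice, so it was higher in MI replicates 1 and 3 than in any sham mouse and within the sham range in MI replicate 2. Sums over genes carry no test here. Mmp2 made up 79.9% ± 1.53 of the MMP sum in sham mice and 75.1% to 80.7% in MI mice. When the gene with the highest mean over all 7 mice was left out of each sum (Mmp2 and Timp2, although Timp3 was above Timp2 in every sham mouse), the ratio was 0.0851 ± 0.0122 in sham mice and 0.252, 0.0746 and 0.262 in MI mice, again above the sham mice in MI replicates 1 and 3 and within their range in MI replicate 2. When all 23 MMP genes of the table were summed instead of 6, the ratio was 0.700 ± 0.105 in sham mice (0.605 to 0.847) against 0.772, 0.552 and 0.825. MI replicates 1 and 3 then lay within the sham range and MI replicate 2 below it, so the higher ratio was not seen over the whole family.

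The make-up of the inhibitor pool differed as well. Timp1 supplied 1.44% ± 0.417 (SD, n = 4) of the TIMP transcripts in sham mice and 38.5%, 2.90% and 20.6% in MI replicates 1 to 3, with every MI mouse above every sham mouse. Timp3, which supplied 51.3% ± 3.24 in sham mice, ranged from 22.2% to 51.9% in MI mice. The share of Timp4 was 10.1% ± 1.92 in sham mice and 0.932% to 11.6% in MI mice. That of Timp2 overlapped between the groups, at 37.1% ± 3.36 and 33.6% to 47.9%.

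**Figure D2:**
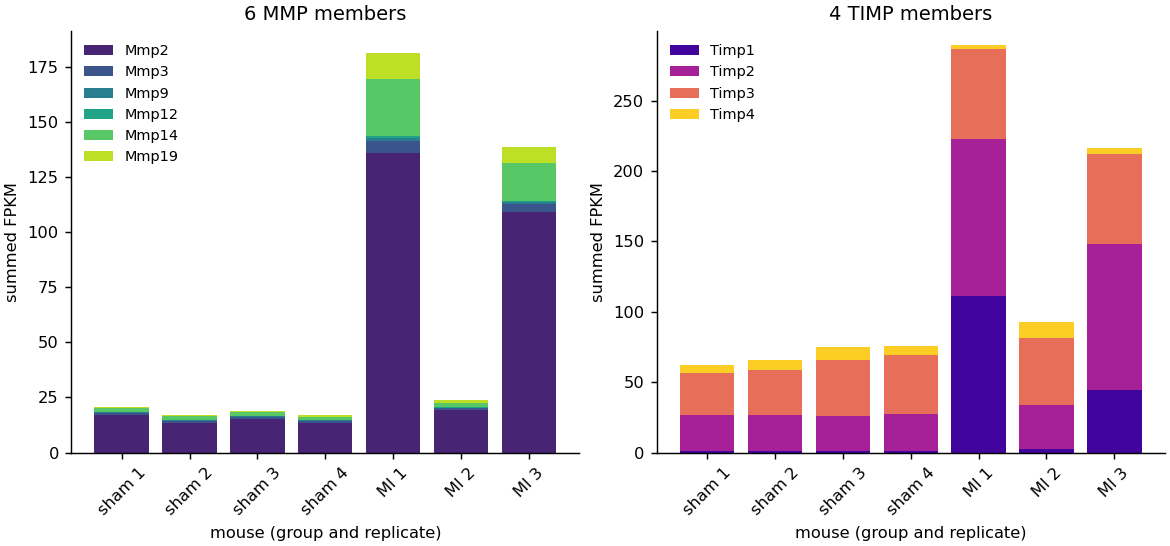
Summed FPKM per mouse of the 6 MMP members (left) and the 4 TIMP members (right), with the contribution of each gene in colour. Mmp2 fills most of the left bars in all mice, while Timp1 fills 38.5% and 20.6% of the right bars of MI replicates 1 and 3 and 1.44% on average in sham mice.

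Whether 2 genes changed unequally was tested within mice, as the difference of their log2(FPKM + 1) values, for 8 pairs. Of the 8 pairs, 4 did not overlap between the groups and reached the smallest exact two-sided permutation p of 0.0571 (0.114 adjusted over the 8 pairs), so no pair passed an adjusted 0.05. All 4 had Timp1 in them. Mmp9 minus Timp1 averaged −0.58 in sham and −4.04 in MI mice, a change of −3.46. Mmp12 minus Timp1 changed by −3.44 and Mmp3 minus Timp1 by −2.69, from −0.05 ± 0.22 (SD, n = 4) to −2.74 ± 1.70 (SD, n = 3). Changes of genes below 1 FPKM, as Mmp9 and Mmp12 mostly were, are compressed on this scale. Timp1 minus Timp3 went from −4.21 to −1.15, a change of 3.06, and in MI replicate 1 Timp1 exceeded Timp3. Without MI replicate 2 these changes were −4.61 for Mmp9, −4.72 for Mmp12 and −3.63 for Mmp3, each minus Timp1, and 4.35 for Timp1 minus Timp3.

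The other 4 pairs overlapped. Timp1 minus Timp4 had the widest change, 4.14 (exact permutation p = 0.114, adjusted p = 0.152), but in MI replicate 2 it lay at −1.67, within the sham range. This overlap depended on the 1 added to FPKM: with 0.1 or nothing added, Timp1 minus Timp4 changed by 4.97 and 5.11 and reached the smallest exact permutation p of 0.0571, which made 5 of the 8 pairs. Mmp2 and Timp2, an enzyme and its partner in activation and inhibition, differed by −0.76 ± 0.16 (SD, n = 4) in sham mice and by 0.29, −0.67 and 0.07 in MI mice, a change of 0.66 (exact permutation p = 0.114, adjusted p = 0.152). Mmp2 was thus below Timp2 in all sham mice and above it in MI replicates 1 and 3. Mmp14 minus Timp2 changed by 0.68 (exact permutation p = 0.229, adjusted p = 0.229) and Timp2 minus Timp3 by 0.74 (exact permutation p = 0.171, adjusted p = 0.196). For Mmp14 minus Timp2 the change was 1.05 and 1.11 with 0.1 or nothing added to FPKM, and 0.40 without MI replicate 1. Without MI replicate 2 the changes were 6.04 for Timp1 minus Timp4, 0.94 for Mmp2 minus Timp2, 1.04 for Mmp14 minus Timp2 and 1.19 for Timp2 minus Timp3. With 2 MI mice left, the exact permutation p was 0.133 for each of the 8 pairs.

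**Figure D3:**
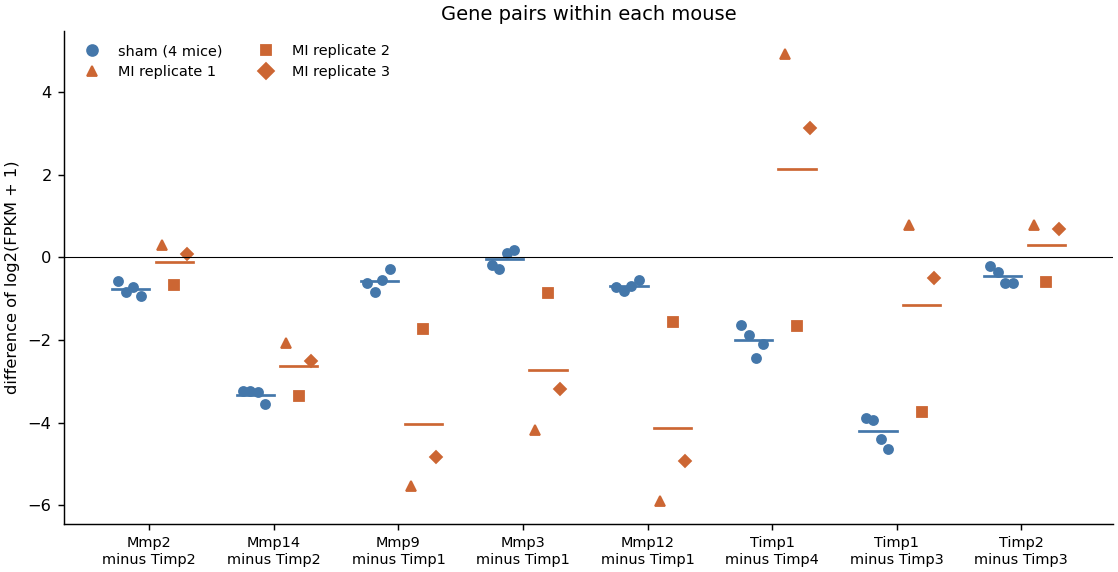
Difference of log2(FPKM + 1) between the 2 genes of each of the 8 pairs, with 1 point per mouse and a bar at the group mean (blue circles for 4 sham mice, orange triangle, square and diamond for MI replicates 1, 2 and 3). The 3 MI mice lie apart from all sham mice for the 3 protease pairs with Timp1 and for Timp1 minus Timp3.

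The rest of the MMP family was mostly at 0 or low. Of the 17 other MMP genes 5 (Mmp1a, Mmp1b, Mmp7, Mmp20 and Mmp21) were listed at 0 in all mice and 8 more, among them the neutrophil collagenase Mmp8 and the collagenase Mmp13, never exceeded 0.935 FPKM. Of these 8, not tested, Mmp16, Mmp17, Mmp24 and Mmp25 were higher in every MI mouse than in any sham mouse, and the others overlapped. Of the 4 tested, 2 were higher and 1 was lower at an unadjusted p under 0.05 (29.5% and 9.85% of all genes), and without MI replicate 2, 3 were higher and 1 was lower at an adjusted p under 0.05 (57% and 14.7% of all genes). Mmp15, a membrane-type MMP like Mmp14, was the most abundant MMP transcript of the sham heart and was lower in MI mice. Its FPKM was 26.1, 24.3, 25.1 and 24.1 in sham mice and 12.4, 21.1 and 13.1 in MI mice, each MI mouse below each sham mouse, as for 9% of all genes. Mmp15 thus had a log2 fold change of −0.68 (SE 0.18, adjusted p = 0.108), and of −0.92 (adjusted p = 2.33e-05) without MI replicate 2. Mmp15 made up 51.6% ± 1.53 (SD, n = 4) of all MMP transcripts in sham mice and 5.54%, 41.4% and 7.31% in MI mice, whereas Mmp2 went from 30.6% ± 1.39 to 60.8%, 37.5% and 60.9%.

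Mmp23, an MMP anchored in the membrane by its amino-terminal end, was at 1.72 to 2.09 FPKM in sham mice and at 22.2, 2.87 and 20.1 in MI mice. Its groups did not overlap, and its log2 fold change was 2.11 (SE 0.58, adjusted p = 0.108), or 2.95 (adjusted p = 8.58e-07) without MI replicate 2. Mmp28 (epilysin) was at 0.554 to 1.03 and at 1.87, 1.02 and 2.30 (log2 fold change 0.61, adjusted p = 0.108), with MI replicate 2 inside the sham range. Mmp11 (stromelysin 3) overlapped as well, at 1.17 to 1.72 against 3.94, 1.17 and 2.79 (log2 fold change 0.49, adjusted p = 0.181). Without that mouse Mmp28 had 0.81 (adjusted p = 0.000909) and Mmp11 0.82 (adjusted p = 0.00128).

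Genes around the enzymes were read from 4 further lists, whose counts stand against 29.5% of all genes higher and 9.85% lower at an unadjusted p under 0.05, and against 57% and 14.7% at an adjusted p under 0.05 without MI replicate 2. Of 12 genes for MMP activation, cell-surface partners and clearance 8 were tested, and 5 were higher and 0 lower at an unadjusted p under 0.05 (median log2 fold change 0.79). With MI replicate 2 left out, 6 were higher and 1, Bsg, was lower at an adjusted p under 0.05, and the median was 1.26. The largest values were those of Thbs2 (2.06, adjusted p = 0.108), a matricellular protein that binds MMP2 for uptake, of the uptake receptor Lrp1 (1.31) and of Cd44 (1.16), a hyaluronan receptor that can hold MMPs at the cell surface. Cd44, like Mmp19, passed the filter through its 3 MI values alone. The fit without MI replicate 2 gave 2.83 for Thbs2 (adjusted p = 1.57e-06), 1.81 for Lrp1 (adjusted p = 2.27e-06) and 1.65 for Cd44 (adjusted p = 0.000212). Thbs2 was at 3.06 to 3.66 FPKM in sham mice and at 32.0, 5.17 and 27.3 in MI mice. The smallest were those of Bsg (−0.26, adjusted p = 0.151, and −0.36, adjusted p = 0.00607, without MI replicate 2), which encodes the MMP inducer basigin and stood at 182 to 188 FPKM in sham and 131 to 175 in MI mice, of Furin (0.26, adjusted p = 0.109), the proprotein convertase that activates membrane-type MMPs, and of the integrin subunit gene Itgav (0.56, adjusted p = 0.193). Leaving that mouse out, Furin had 0.33 (adjusted p = 0.00139) and Itgav 0.73 (adjusted p = 0.0788).

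Of 8 genes listed as other inhibitors, Pcolce among them, 4 were tested and 3 were higher at an unadjusted p under 0.05 (median 1.14), as were 3 at an adjusted p without MI replicate 2 (median 1.61). Serpine2, which encodes an inhibitor of serine proteases such as the plasminogen activators, was at 2.18 to 2.55 FPKM in sham mice and at 19.6, 2.47 and 16.8 in MI mice, with MI replicate 2 inside the sham range and a log2 fold change of 1.69 (adjusted p = 0.108). Pcolce, an enhancer of procollagen processing, had 1.49, and the membrane-anchored MMP inhibitor Reck 0.80. Spock2, a matrix proteoglycan gene, had 0.24 and did not pass an unadjusted 0.05. In the fit without MI replicate 2 the values were 2.51 for Serpine2 (adjusted p = 1.94e-06), 2.12 for Pcolce (adjusted p = 5.33e-06), 1.10 for Reck (adjusted p = 0.000187) and 0.16 for Spock2 (adjusted p = 0.322).

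The substrates had the largest values of any list: 9 of 12 matrix genes were tested and 7 were higher at an unadjusted p under 0.05, with a median log2 fold change of 3.14. All 9 were higher at an adjusted p under 0.05 without MI replicate 2, with a median of 4.47. Eln, which encodes elastin, was at 4.33 to 6.79 FPKM in sham mice and at 198, 20.4 and 214 in MI mice (log2 fold change 3.92, adjusted p = 0.108). Col1a1 (3.69) and Col3a1 (3.37), the main fibrillar collagens, followed. The smallest were those of the basement-membrane genes Lamb1 (0.60), Col4a2 (0.86, adjusted p = 0.156) and Col4a1 (0.95, adjusted p = 0.189), for which MI replicate 2 lay below or within the sham mice. That mouse left out, Eln had 5.01 (adjusted p = 1.09e-06), Col1a1 5.02 (adjusted p = 1.32e-06), Col3a1 4.49 (adjusted p = 4.12e-06), Lamb1 0.91 (adjusted p = 2.94e-05), Col4a2 1.43 (adjusted p = 9.21e-05) and Col4a1 1.67 (adjusted p = 9.37e-05).

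The calls among known inducers of MMP genes turned on MI replicate 2, as they did over all genes. Of 12 cytokine, AP-1 and ETS genes 7 were tested. At an adjusted p under 0.05, 0 were called with all mice and 6 were higher without that mouse (median log2 fold change 0.51 and 0.87). With all mice, 1 was higher at an unadjusted p under 0.05. The 1 gene was Junb, an AP-1 subunit, at 5.74 to 6.51 FPKM in sham mice and 47.4, 6.43 and 29.4 in MI mice (log2 fold change 1.63, adjusted p = 0.109). The AP-1 subunit gene Fos had 1.12 (adjusted p = 0.140), the growth factor gene Tgfb1 0.69 (adjusted p = 0.138), Jun 0.34 (adjusted p = 0.165), Ets1 0.33 (adjusted p = 0.207) and Ets2 0.11 (adjusted p = 0.483). Leaving out that mouse, the values were 2.41 for Junb (adjusted p = 3.11e-05), 1.82 for Fos (adjusted p = 0.00014), 1.12 for Tgfb1 (adjusted p = 1.97e-05), 0.55 for Jun (adjusted p = 0.000429) and 0.24 for Ets2 (adjusted p = 0.0216), while Ets1 at 0.29 did not pass (adjusted p = 0.245). Over the 5 lists, 29 of 61 genes fell below the filter, and 7 of these, such as Spp1, Tnc and Il1b, had at least 1 FPKM in MI replicates 1 and 3 but not in any other mouse. With all mice, an adjusted 0.05 was passed by 0 of the 32 genes tested.

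**Figure D4:**
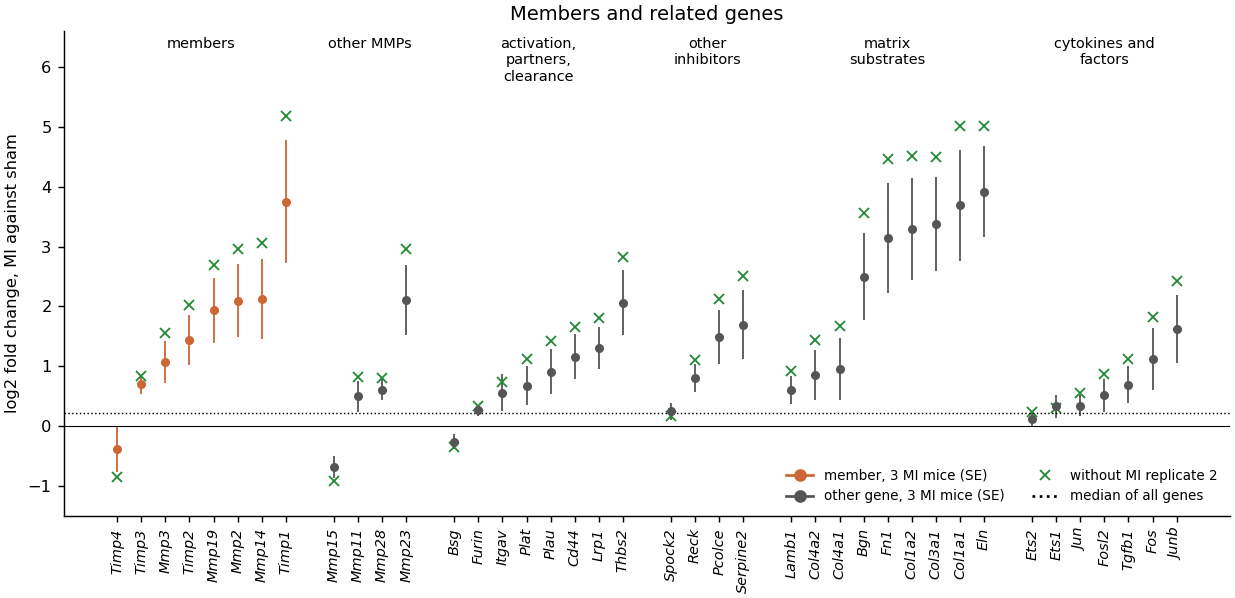
Log2 fold change of MI against sham mice for the 8 tested members (orange) and the 32 tested genes of the 5 lists (grey), with bars of 1 standard error from the limma fit to 3 MI and 4 sham mice, and crosses for the fit without MI replicate 2. The crosses lie farther from 0 than the points for all members, and the dotted line marks the median of all genes at 0.21.

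Markers of the cell types that could supply these transcripts moved in the same mice. All 6 fibroblast markers were higher in MI mice at an unadjusted p under 0.05 (against 29.5% of all genes higher and 9.85% lower), and their summed level was 105 to 115 FPKM in sham mice and 772, 155 and 727 in MI mice, or 7.07, 1.42 and 6.66 times the sham mean. For comparison, the level of Mmp2 stood at 9.20, 1.29 and 7.36 times its sham mean and Timp2 at 4.32, 1.21 and 4.04 times. In MI replicates 1 and 3, the members above the sham mean ranged from Timp3 (1.79 and 1.78 times) to Timp1 (113 and 45.3 times). The 6 fibroblast markers were unequal too, at 4.35 to 57.0 times their own sham means in MI replicate 1. All 6 macrophage markers were higher as well, with sums of 156 to 201 in sham mice and 1032, 189 and 885 in MI mice. Neutrophil markers stayed at or under a sum of 1.29 FPKM in sham mice and summed to 13.8, 0.485 and 7.33 in MI mice, with none of the 6 tested and the defining marker Ly6g at 0 in every mouse. In MI replicate 2, Mmp9 was lowest of all mice and the sum of these markers, though not every marker, stayed within the sham range. Both rested on few fragments there.

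Of the 6 cardiomyocyte markers 3 were lower and 0 higher at an unadjusted p under 0.05, beside 9.85% and 29.5% of all genes. Their sum was 0.679, 0.978 and 0.703 times the sham mean, where Timp4 was at 0.380, 1.51 and 0.590 times. None of 5 endothelial markers was called, with sums of 116 to 135 FPKM in sham and 108 to 154 in MI mice, and of 5 smooth muscle and pericyte markers 1 was higher and 1 lower (208 to 250 against 210 to 330). All 3 tested of 4 mesothelial markers were higher, and their sum was above the sham mice in all MI mice (3.42 to 8.06 against 15.4 to 32.2). Adipocyte markers, at 0.00701 to 0.244 FPKM in sham mice, summed to 13.6, 0.0406 and 45.1 in MI mice, and lymphocyte markers, at 0.544 to 0.616, to 24.2, 0.562 and 4.00. Both sums were thus far above the sham mice in MI replicates 1 and 3, though none of these markers passed the filter. Markers of mast cells (1.98 to 3.72 against 3.31 to 6.96) and of epidermis and cartilage (0.366 to 0.609 against 0.363 to 1.89, with Krt5 and Dsg3 at 0 in every mouse) overlapped between the groups. This overlap came from MI replicate 2, and both sums were above all sham mice in MI replicates 1 and 3. Without MI replicate 2, at an adjusted p under 0.05, 6 fibroblast, 5 macrophage, 3 endothelial, 2 smooth muscle and pericyte and 3 mesothelial markers were higher, and 6 cardiomyocyte and 1 smooth muscle and pericyte markers were lower, where 57% of all genes were higher and 14.7% lower. The part of these cell types in the changes of MMP and TIMP transcripts was not tested.

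**Figure D5:**
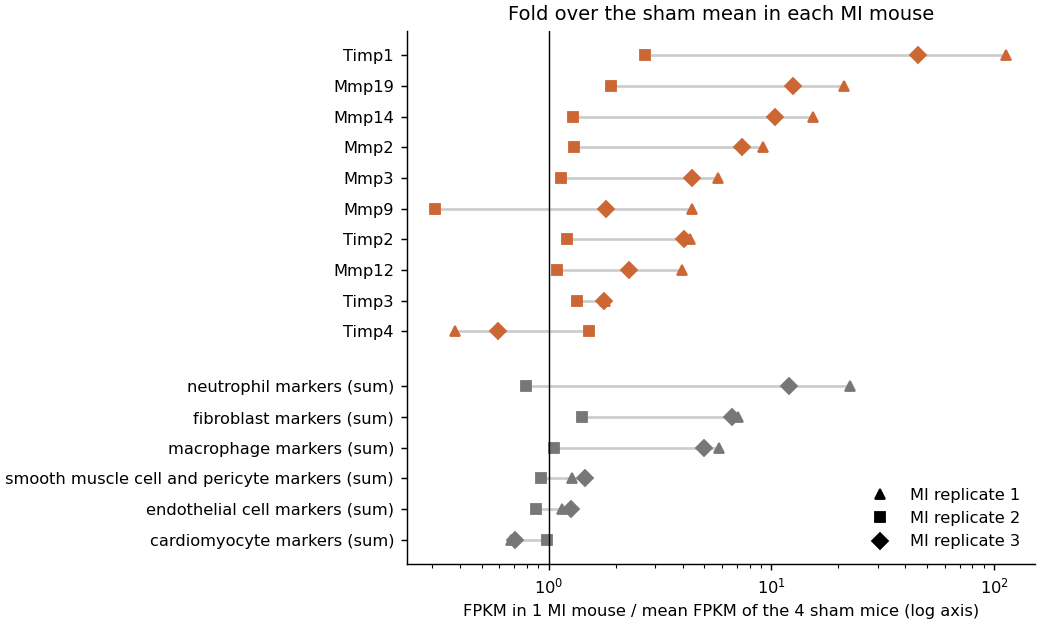
Level in each MI mouse relative to the mean of the 4 sham mice (log axis) for the 10 members (orange) and for the summed markers of 6 cell types (grey), with triangles, squares and diamonds for MI replicates 1, 2 and 3. Timp1 reaches 113-fold in MI replicate 1, and the squares of MI replicate 2 lie between 0.309-fold and 2.72-fold for all members.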

How the data were processed

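Myocardial RNA of 4 sham and 3 MI mice was sequenced, and the labels gave the groups. Per gene and mouse the authors deposited an FPKM, normalized for gene length and library size. The submitters' processing notes name mm10, CASAVA 1.8, HISAT2, SAMtools 1.3.1 and edgeR without roles. The annotation, the counter and its strand setting are not given in the sources used here. All columns of values were used. Symbols and positions came from GENCODE M21 on GRCm38, which held 52073 of the 56980 identifiers (91.4%), and promoter windows from RefSeq (GRCm38.p6).

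A step of 1 fragment could be read from the low values, which gave fragment numbers whole within 0.05 for 11429 of the 11431 tested genes. These gave the depths of 19977713 to 23610869 fragments. FPKM was analysed as log2(FPKM + 1) without rescaling, with a filter of at least 1 FPKM in at least 3 mice, in a comparison of the groups with no covariates by limma 3.58.1 (lmFit, trended eBayes; R 4.3.3), with Benjamini-Hochberg adjustment at 0.05. The fit was tested on simulated data. Pairs and single genes were tested by exact two-sided permutation over 35 splits with SciPy 1.17.1 in Python 3.11.15 (NumPy 2.4.6, pandas 2.3.3, matplotlib 3.10.9).

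The members, the gene lists and the markers were chosen with earlier results of these data known. All 10 members are named, of each list the up to 3 tested genes with the largest and the 3 with the smallest fold change and every other tested MMP, and for each member the 2 genes with the most similar pattern. Genes named beyond this rule (Spp1, Tnc, Il1b, the untested MMPs, markers at 0 and those overlapping a member) were picked after their values were seen. Of the lists, 1 gene is not reported here, in the text or in the counts. Alternatives were a pseudocount of 0.1, no filter or one on the mean, rescaling to TPM, quantile and median log-ratio scaling, leaving out mitochondrial genes, limma without trend or with sample weights, a replicate block, voom on recovered fragments, and each mouse left out.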

Additional observations from a re-analysis of the deposited data

Results flagged for a closer look

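Of 23 sets of 4 sham values examined with Dixon's test, 1 had a mouse far from the others, where chance gives 1.15. The difference Mmp14 minus Timp2 was −3.55 in sham replicate 4 and −3.26 to −3.23 in the other sham mice, and the gap was 0.906 of the whole range, above the test's 95% critical value. Groups of 3, as the MI mice are, were not tested.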

How the results depend on the processing

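Of 340 recomputed values, 312 kept their direction and their side of the threshold (counts stayed within 1.5 times). MI replicate 2 decided the calls: with each mouse left out in turn, the members higher at an adjusted p under 0.05 ranged from 0 to 7, those lower from 0 to 1, and those lower at an unadjusted p from 0 to 1, and each upper end was reached without MI replicate 2. Those higher at an unadjusted p ranged from 5 (without MI replicate 3) to 7. With voom 0 members passed an adjusted 0.05 and 7 were higher at an unadjusted one. Sample weights gave the same counts, 7 higher and 1 lower at an adjusted p and 1 lower at an unadjusted p, but called 66.8% of all genes higher and 20.3% lower at an adjusted p and placed nearly all MI weight on MI replicate 3 (437 against 0.0906 and 0.0217). With a pseudocount of 0.1 or none, 5 of 8 pairs reached the smallest exact permutation p against 4. Over the alternatives the adjusted p ranged from 3.82e-08 to 0.335 for Timp1 and from 0.000315 to 0.956 for Timp4. Of the 61 listed genes, 32 were higher at an unadjusted p with no filter, where more genes were tested, against 18. Those lower were 2 with quantile and with median log-ratio scaling against 1, and 1 to 2 with each mouse left out. The mean ratio of summed MMPs to TIMPs in MI mice was 0.196 without the member of each sum that had the highest mean over all 7 mice (Mmp2 and Timp2), against 0.507. The log2 difference of Mmp9 ranged from −0.00085 to 0.57 with each mouse left out, the lowest without MI replicate 1. Against the median gene at 0.21, TPM moved that median by 0.21, quantile scaling by −0.24 and median log-ratio scaling by −0.21.

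Deviations of same-numbered sham and MI mice from their group means correlated at 0.0739, −0.0163 and −0.0803. Those of the MI mice are dominated by the split of MI replicate 2 from the others. The correlations therefore cannot decide whether the numbers mark pairs, and the labels do not say. With a replicate block, 0 members passed an adjusted p of 0.05 (0.240 for each of the 7 higher ones) and 7 were higher at an unadjusted p, as without it. Of all genes, the block called 0 against 3.

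With 3 mice against 4 no exact p can go under 0.0571. Mmp9 and Mmp12 rest on too few fragments for small changes to be seen.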

Other observations

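MI replicates 1 and 3 did not differ alike across the members. MI replicate 1 exceeded MI replicate 3 for 9 of the 10 members, by 2.42-fold for Mmp9, by more for Timp1 (112 against 44.6 FPKM), by 1.73-fold for Mmp12 and 1.70-fold for Mmp19, but only by 1.07-fold for Timp2 and 1.01-fold for Timp3. Timp4 was the exception, at 0.644-fold. The median gene tested had 1.03-fold on FPKM + 1. Each value compares a pair of mice and carries no test.

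The genes whose log2 levels followed a member most closely over the 7 mice were Pid1 and Arhgef25 for Mmp14, Gm26377 and Fhod1 for Mmp2, Ube2j1 and Hmox1 for Mmp3, Gm10240 and Mettl21a for Mmp19, Samhd1 and Rpl5 for Timp1, and Ankrd13a and Mbtps1 for Timp2, each at a Pearson's r of at least 0.99. Such likeness was common, since 745 of 11430 genes exceeded an r of 0.99 with Mmp2 and 440 with Timp1, and all points share the split of MI replicates 1 and 3 from the other mice. Dpp8 and Ankrd13b were closest to Mmp12 and Wdr26 and ENSMUSG00000121226 (r = 0.992) to Mmp9, with 26 and 2 genes above that r. Timp3 had 2 such genes, Gm2981 and Dnajb12. Timp4 had 0 of them, and its closest were Atp8a1 (r = 0.970) and Klf9 (r = 0.969).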
